A study of Mus musculus with 12 samples.

Results

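TRBV15, also called Vβ12, is a variable gene segment of the T cell receptor (TCR) beta chain, and the clonotypes described here are all those whose best-scoring V segment was TRBV15. A clonotype is a V segment plus the bases of complementarity-determining region 3 (CDR3) joined to it, counted in unique molecular identifiers (UMIs), each of which tags 1 cDNA molecule. TRBV15 was selected on its share of UMIs, which was higher in KO than in WT spleen, largely through single clones. Values of that contrast are thus given as a description without a test. Of 113664 clonotypes in 12 libraries, 4165 used TRBV15 (3.66%), and they held 66514 of 1716882 UMIs (3.87%). Only 40 of the 4165 clonotypes, with 40 UMIs in all, had a further V segment listed beside TRBV15.

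The beta chain is assembled in thymocytes by recombination of a V, a D and a J segment. The ends of the segments are trimmed and untemplated bases are added before they are joined, so that the CDR3, the loop that contacts the peptide on the MHC molecule, differs between clones while the V segment is inherited. A rearrangement that is out of frame or holds a stop codon cannot make a receptor chain, but it can be carried and transcribed by a T cell whose other allele is productive.

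The series compared CD4+ T cells recovered from Rag2-/- mice 6 weeks after transfer of naive CD4+ T cells, a model of colitis. The authors reported weight loss and heavy T cell infiltration with WT cells, but kept weight and mild inflammation with KO cells. The groups thus differed in disease as well as in genotype. Rag2-/- mice have no mature T or B cells of their own. Donors on the C57BL/6 background were PRKAA1fl/fl (WT), or CD4-Cre PRKAA1fl/fl (KO), in which Cre driven by CD4 regulatory elements deletes the floxed AMPKα1 gene during thymocyte development. The floxed alleles were thus shared by both groups, and the control donors carried no Cre. Mesenteric lymph node (mLN) and spleen were sequenced from 3 WT mice (replicates 1, 3 and 4) and 3 KO mice (replicates 1, 2 and 3), taking libraries of the same genotype and number as the organs of 1 mouse, and ages were not given in the labels. Mice, not clonotypes, are the replicates. The files hold TCR beta sequences only, so the labelled cell type could not be compared with other marker genes.

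Library totals ranged from 2488 UMIs (KO replicate 3 mLN) to 493287 UMIs (WT replicate 3 spleen). In 7 libraries 26.1% to 38.3% of the clonotypes of 1 UMI had a J end other than the usual one for their J segment, against 2.42% to 5.85% in the other 5, which were the smaller ones. These 5 were both organs of WT replicate 1 and KO replicate 1, and KO replicate 3 mLN. Of the TRBV15 clonotypes, 3198 had 1 UMI and 967 had at least 2. KO replicate 3 mLN contributed 33 TRBV15 UMIs in 7 clonotypes, so its values rest on few molecules.

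The gene encoding the segment, Trbv15 (ENSMUSG00000076472.2), lies on chromosome 6 at 41141188 to 41141658 on the plus strand of GRCm38, between Trbv14 and Trbv16. GENCODE annotates it as a TR_V_gene with an exon from 41141188 to 41141259 and an exon from 41141361 to 41141658, and the conserved cysteine codon that opens the CDR3 is near the end of the latter. The genome build behind the deposited files was not given in the sources used here, so the germline end was read by gene name from the GENCODE transcript. It contributes at most 17 bases to a CDR3. The CDR3s below belong to the largest TRBV15 clonotype of each library, 8 sequences in all because 4 mice had the same leader in both organs. They are shown because single clones made up much of the TRBV15 share, with the bases between the aligned V end and the aligned J start in capitals.
germline end of Trbv15: tgtgccagcagtttagc
WT replicate 1, both organs: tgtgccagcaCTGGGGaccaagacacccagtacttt
WT replicate 3, both organs: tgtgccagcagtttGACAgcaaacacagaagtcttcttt
WT replicate 4, mLN: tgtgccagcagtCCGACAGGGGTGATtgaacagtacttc
WT replicate 4, spleen: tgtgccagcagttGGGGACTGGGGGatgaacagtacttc
KO replicate 1, both organs: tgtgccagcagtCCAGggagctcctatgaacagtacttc
KO replicate 2, mLN: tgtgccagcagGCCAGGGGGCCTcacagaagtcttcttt
KO replicate 2, spleen: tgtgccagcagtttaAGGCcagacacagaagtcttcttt
KO replicate 3, both organs: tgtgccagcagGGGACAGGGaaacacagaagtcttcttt

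All 8 leading clonotypes were in frame without a stop codon, and 7 of them had a CDR3 of 39 bases, the WT replicate 1 leader having 36. Of the 8, 4 were joined to TRBJ1-1, 3 to TRBJ2-7 and 1 to TRBJ2-5. Between 2 and 7 bases had been removed from the V end, and between 4 and 14 bases lay between V and J.

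TRBV15 took a middle place among V segments and varied widely between libraries. By mean share of UMIs over the 12 libraries it ranked 10 of 31 V segments seen, at 4.76%, just below TRBV19 (4.86%) and just above TRBV26 (4.48%). The SD of the TRBV15 share over libraries was 4.68 percentage points, so that these neighbours in the order did not differ beyond their spread. Its coefficient of variation, 98.3%, ranked 3 among the 25 segments that reached 10 UMIs in 3 or more libraries. Both values rest on KO replicate 1 spleen, a library TRBV15 was selected on. Without it the mean was 3.48%, rank 13 and below TRBV26, and the coefficient of variation was 46.8%, rank 17 of 25. The segments whose share moved most like that of TRBV15 over the 12 libraries, on the log2(percent + 0.1) scale, were TRBV13-1 (Pearson's r = 0.774), TRBV29 (r = 0.651) and TRBV3 (r = 0.408). Without KO replicate 1 spleen these were 0.726, 0.866 and 0.575, with TRBV17 (r = 0.579) ahead of TRBV3. The 12 points come from 6 mice and the shares of a library sum to a fixed total, so these values describe the libraries only.

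In mLN, TRBV15 held 3.74%, 1.85% and 3.76% of UMIs in WT replicates 1, 3 and 4. The KO replicates 1, 2 and 3 had 5.91%, 5.89% and 1.33%. KO replicates 1 and 2 thus lay above every WT mouse and KO replicate 3 below every WT mouse, so the groups overlapped. In spleen the WT values were 2.62%, 1.99% and 3.87%, and the KO values were 18.8%, 5.13% and 2.24%. Here again 2 KO mice lay above all WT mice and KO replicate 3 lay within the WT range. The widest 95% Wilson interval, that of KO replicate 3 mLN, ran from 0.946% to 1.86%, and intervals cover counting error only. A higher share of UMIs can come from more cells or from more TCR mRNA per cell, which cannot be told apart here.

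**Figure D1:**
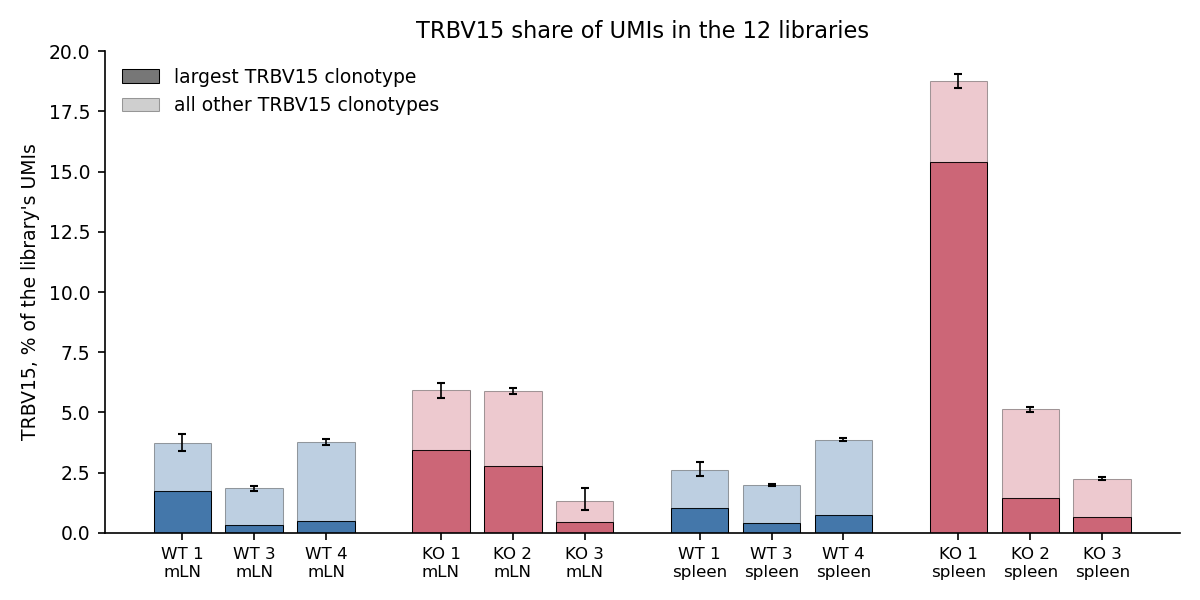
Percent of each library's UMIs that belonged to TRBV15 (y axis) in the 12 libraries (x axis), split into the largest TRBV15 clonotype (dark) and all other TRBV15 clonotypes (light), WT in blue and KO in red, with 95% Wilson intervals of the total. KO replicate 1 spleen, at 18.8%, stands apart through its largest clonotype. With the largest clonotype taken out of the library total as well, all 12 libraries lie between 0.888% and 3.998%. The light bars are drawn on the full total and differ slightly from these values.

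The spleen share averaged 2.82 ± 0.957% in WT and 8.71 ± 8.82% in KO (SD, n = 3 each), a difference of 5.89 percentage points on which the segment was selected. Most of it was a single clonotype. In KO replicate 1 spleen TRBV15 ranked 1 of all V segments, and 82.0% of its UMIs belonged to the clonotype ending in TRBJ2-7 shown above. With the largest TRBV15 clonotype of every library left out, the spleen share was 2.11 ± 0.886% in WT and 3.11 ± 1.33% in KO, a difference of 0.9996 points, and without KO replicate 1 the difference in full shares was 0.865 points. Counted as clonotypes with at least 2 UMIs, TRBV15 made up 3.98 ± 0.393% of the WT and 3.95 ± 0.144% of the KO spleen libraries. Within libraries with few unusual J ends, 1 KO and 1 WT spleen differed by 16.1 points, and within those with many, 2 KO and 2 WT spleens differed by 0.762 points.

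The mLN libraries were not used to select TRBV15, but they come from the same mice as the spleens. Their share of UMIs averaged 3.11 ± 1.10% in WT and 4.38 ± 2.64% in KO (SD, n = 3 each). The log2 fold change was 0.50 (SE 0.65), with an adjusted p of 0.705 by edgeR's quasi-likelihood test over 23 V segments, and the exact two-sided permutation test of the percentages gave p = 0.6 (adjusted over 5 measures 0.875). The smallest p that 20 assignments of 6 mice allow is 0.1. None of the segments passed in mLN (0 of 23 by edgeR and 0 by DESeq2, 0% called, with 1 and 2 at an unadjusted p under 0.05). A block by replicate number called 2 of 21 segments, TRBV15 not among them. Left without the largest TRBV15 clonotype of each library, mLN shares were 2.29 ± 0.890% in WT and 2.22 ± 1.20% in KO, and the log2 fold change was −0.0361. Within libraries with few and with many unusual J ends the KO minus WT difference was −0.119 and 3.09 points, on 3 libraries each.

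Other measures of the TRBV15 clonotypes in mLN did not separate the genotypes by a test either. TRBV15 made up 3.27 ± 0.414% of the clonotypes with at least 2 UMIs in WT mLN and 3.23 ± 0.546% in KO mLN (exact permutation p = 0.9, adjusted over 5 measures 0.9). Within mice this share was higher in spleen than in mLN by 1.28, 0.183 and 0.648 points in WT replicates 1, 3 and 4 and by 0.525, 0.411 and 1.24 in KO replicates 1, 2 and 3. It lay above in 6 of 6 mice, as for no other of the 18 V segments compared within mice, and was not tested since it was noticed in the data. The widest differences are those of WT replicate 1 and KO replicate 3, whose mLN libraries hold 21 and 5 such TRBV15 clonotypes. In-frame TRBV15 CDR3s averaged 40.1 ± 1.42 bases in WT and 40.5 ± 0.323 in KO (exact permutation p = 0.7, adjusted 0.875). TRBJ2 segments, the downstream J cluster, were joined to 71.4%, 60.9% and 68.9% of the TRBV15 clonotypes of WT replicates 1, 3 and 4. In KO replicates 1, 2 and 3 they were joined to 56.3%, 60.3% and 2 of 5. All 3 KO values lay below all 3 WT values, by 14.9 points on average, which gives the smallest p of this design (exact permutation p = 0.1, adjusted 0.5). Without KO replicate 3 the difference was −8.79 points. With clonotypes of both organs pooled, TRBJ2 segments made up 67.6%, 63.2% and 71.8% in WT replicates 1, 3 and 4. In KO replicates 1, 2 and 3 they then made up 71.4%, 63.6% and 63.5%, so the genotypes overlapped. The largest clonotype held 25.2 ± 18.1% of TRBV15 UMIs in WT mLN and 46.2 ± 12.5% in KO mLN (exact permutation p = 0.2, adjusted 0.5). Single clones were part of the selection of TRBV15 in KO spleen, and KO replicates 1 and 3 had the same leader in both organs. A higher KO value is thus favoured in this measure.

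Among single clones, the KO replicate 1 leader was the largest TRBV15 clonotype of the series. It held 9981 of 64882 UMIs in spleen, 15.4% (95% Wilson interval 15.1% to 15.7%), where it was the largest clonotype of any V segment. In mLN of the same mouse it held 819 UMIs, 3.45% (3.22% to 3.69%), and ranked 4. Only 1 clonotype in any of the 12 libraries had a higher share than the 15.4% of this leader in spleen. The next TRBV15 clonotype of that spleen held 1.24%, joined to TRBJ2-1.

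KO replicate 2 had 2 large TRBV15 clonotypes with different CDR3s, both joined to TRBJ1-1, and their order changed between the organs. The mLN leader took 2.77% in mLN (2.68% to 2.86%) against 1.04% in spleen (0.991% to 1.09%). The spleen leader took 1.43% in spleen (1.37% to 1.49%) against 1.14% in mLN (1.09% to 1.20%). Neither pair of intervals overlapped between organs, although each organ was sampled by 1 library.

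In the WT mice and in KO replicate 3 no leader reached 2% of a library. The WT replicate 1 leader took 1.72% in mLN and 1.02% in spleen. In WT replicate 3 it held 0.305% and 0.404%. The WT replicate 4 leaders held 0.496% in mLN and 0.755% in spleen. The KO replicate 3 leader held 0.442% in mLN, on 11 UMIs, and 0.674% in spleen, so that WT and KO leaders overlapped in size. Across the series 142 clonotypes held at least 1% of a library, counting a clone in each library where it did, and 9 of them (6.34%) were TRBV15. In KO libraries 7 of 85 such clonotypes were TRBV15, and in WT libraries 2 of 57. TRBV15 was selected on its share in KO spleen, so more entries in KO libraries are favoured. The 7 KO entries came from KO replicates 1 and 2 only, most of them clones counted in both organs. The 2 WT entries were the WT replicate 1 leader in its 2 organs.

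The number of TRBV15 clonotypes that together held 50% of the segment's UMIs was 1 in both organs of KO replicate 1, 2 or 3 in KO replicate 2, 2 in both organs of WT replicate 1, and 5 to 7 in WT replicates 3 and 4. KO replicate 3 needed 2 in mLN and 4 in spleen. Ranked by the share of its UMIs held by its largest clonotype, TRBV15 was 1 of 21 V segments in KO replicate 1 spleen and 3 of 21 in KO replicate 1 mLN. In WT replicate 4 it was 20 of 25 in mLN and 16 of 28 in spleen. The other mice lay between. In mLN and spleen TRBV15 was 3 of 24 and 8 of 25 in KO replicate 2, and 7 of 17 and 10 of 25 in KO replicate 3. It was 4 of 21 and 8 of 20 in WT replicate 1, and 10 of 23 and 13 of 29 in WT replicate 3. The genotypes thus overlapped, and KO replicate 1 spleen is a library TRBV15 was selected on.

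Spleen and mLN of a mouse shared most of the larger TRBV15 clonotypes, as they did those of other V segments. Of those with at least 10 UMIs in mLN, 100% were found in spleen in all mice but KO replicate 2, where 29 of 30 were. Of those with at least 10 UMIs in spleen, between 83.3% and 95.1% were found in mLN in 5 mice, and 6 of 45 (13.3%) in KO replicate 3, whose mLN library is the smallest. Over clonotypes of all other V segments the shares were 96.2% to 100% of those in mLN, 81.5% to 98.2% of those in spleen in the same 5 mice, and 19.6% in KO replicate 3. In KO replicate 2, 30 of the 43 TRBV15 clonotypes seen in both organs had the higher share in spleen and 13 in mLN. In KO replicate 1 the split was 7 and 12, although its leader was 4.46 times higher in spleen. Clonotypes of other V segments were higher in spleen in 54.6% of cases in KO replicate 2 and 44.2% in KO replicate 1, against 69.8% and 36.8% for TRBV15.

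**Figure D2:**
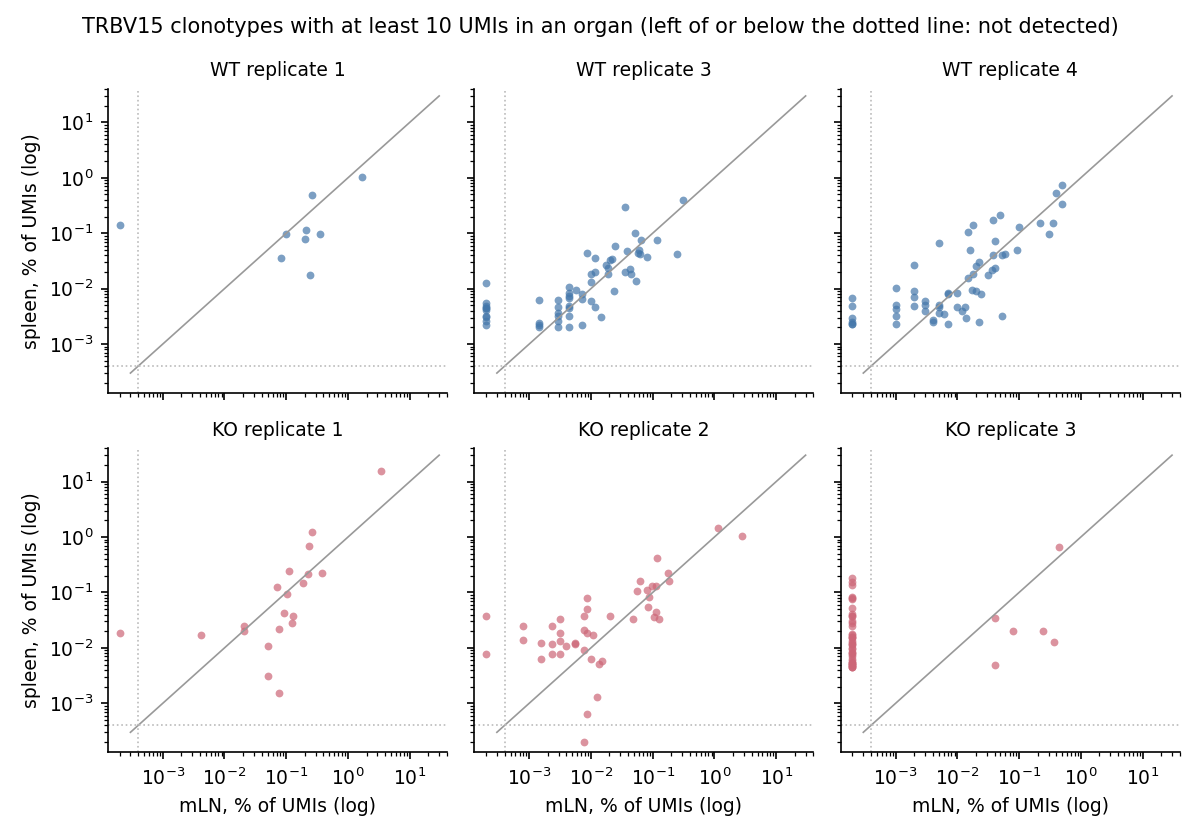
Share of UMIs in mLN (x axis) and spleen (y axis), both in percent on log scales, of every TRBV15 clonotype with at least 10 UMIs in an organ, by mouse. Points on the line have equal shares, and points beyond the dotted lines were not detected in the other organ. In KO replicate 1 the leader lies at 3.45% and 15.4%, above the line, and in KO replicate 3 most points lie at the left, not detected in the small mLN library.

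The similarity of the organs was summarized by the Morisita-Horn index, which is 1 for identical shares and 0 for no shared clonotype. It was 0.816 ± 0.122 for TRBV15 and 0.643 ± 0.146 for all other V segments together (SD, n = 6 mice). TRBV15 was higher in 5 of 6 mice, by 0.173 ± 0.203, as 17 of 18 single segments had a higher mean than the pool of the rest, and the difference did not pass (exact sign-flip test p = 0.125, adjusted over 18 segments 0.281). None of the 18 V segments passed for this index (0% called by the sign-flip test, 3 at an unadjusted p under 0.05, and 1 by limma).

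The structure of the CDR3 was compared within mice, TRBV15 against all other V segments, with each distinct clonotype of at least 2 UMIs counted 1 time over both organs. These measures do not use abundance and were not used to select the segment. Per mouse 34 to 245 TRBV15 clonotypes entered, 750 in all. The same comparison was made for each of 18 V segments with at least 10 clonotypes in every mouse, by two-sided exact sign-flip tests over 6 mice (64 patterns, smallest p 0.0313) with Benjamini-Hochberg adjustment over the segments.

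TRBV15 ends were trimmed more than those of the other segments pooled. On average 4.11 ± 0.327 bases were missing from the germline V end of TRBV15 clonotypes, against 2.37 ± 0.0826 for all others (SD, n = 6 mice). WT replicates 1, 3 and 4 lacked 4.38, 3.77 and 3.90 bases, and KO replicates 1, 2 and 3 lacked 4.57, 4.22 and 3.84. The lowest TRBV15 value lay above the highest value of the others. The difference was 1.75 ± 0.375 bases, with 6 of 6 mice higher (p = 0.0313 by the exact sign-flip test, adjusted 0.0352). By this mean TRBV15 was the highest of the 18 segments, but TRBV4 (1.63 ± 0.124) and TRBV29 (1.497 ± 0.394) lay within its spread. It ranked 1 in 4 mice, 2 in WT replicate 3 and 3 in KO replicate 3. Most segments differed from the rest in this measure, 88.9% being called in either direction, so that passing the test is not particular to TRBV15. It averaged 1.69 bases in WT and 1.81 in KO mice. Within libraries with few unusual J ends the difference was 2.20 bases (2 mice), and within those with many 1.53 (4 mice), with every mouse higher.

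Fewer germline V bases were left. TRBV15 clonotypes kept 12.9 ± 0.322 V bases in the CDR3 and others 13.7 ± 0.103, a difference of −0.83 ± 0.377 bases that held in 6 of 6 mice (p = 0.0313 by the exact sign-flip test, adjusted 0.0402, with 77.8% of segments called). The germline end of TRBV15 is not short, since its 17 bases are the most found among the 18 segments, shared by 10 of them. A base that matches the germline by chance counts as kept in the alignment, so trimming is a lower limit in every segment.

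The number of bases removed was uneven. Among all TRBV15 clonotypes, 6 bases were removed in 22.9 ± 3.60%, 5 in 20.9 ± 6.67% and 3 in 17.8 ± 5.44% (mean ± SD of 6 mice), whereas 4 were removed in 7.49 ± 3.496% and 7 in 2.67 ± 3.17%. The intact end was found in 3.75 ± 1.95%. Of the leading clonotypes above, those of KO replicate 3 and KO replicate 2 mLN lack 6 bases. Those of KO replicate 1 and WT replicate 4 mLN lack 5. The leaders of WT replicate 1, WT replicate 4 spleen, WT replicate 3 and KO replicate 2 spleen lack 7, 4, 3 and 2. Removal of 6 bases made up 25.7 ± 6.64% of the 586 in-frame and 15.01 ± 8.41% of the 164 non-productive clonotypes, and removal of 5 made up 17.9 ± 5.90% and 29.99 ± 14.7%. The profiles of non-productive clonotypes rest on 7 to 45 clonotypes per mouse. The mean number removed was higher in non-productive clonotypes in 4 of 6 mice, with differences from −0.597 to 0.810 bases.

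**Figure D3:**
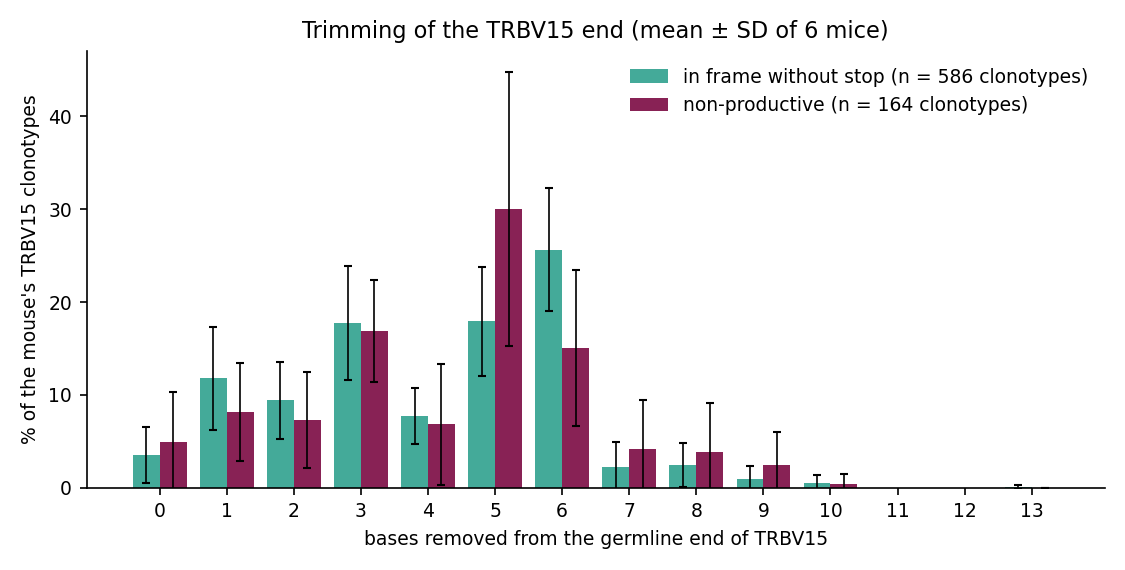
Percent of TRBV15 clonotypes with at least 2 UMIs (y axis) by the number of bases removed from the germline V end (x axis), for in-frame and non-productive clonotypes, as mean ± SD of 6 mice. Removal of 3, 5 and 6 bases is more frequent than removal of 4 or 7 in both.

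TRBV15 CDR3s were shorter than those of the other segments pooled. In-frame TRBV15 CDR3s averaged 40.1 ± 0.525 bases and those of other V segments 41.4 ± 0.0540 (SD, n = 6 mice). WT replicates 1, 3 and 4 had 39.2, 40.8 and 39.8 bases and KO replicates 1, 2 and 3 had 40.1, 40.2 and 40.2, all below every value of the others. The difference of −1.33 ± 0.525 bases held in 6 of 6 mice (p = 0.0313 by the exact sign-flip test, adjusted 0.0433). By the mean of 6 mice TRBV20 alone of the 18 segments was shorter, while by mouse TRBV15 ranked from 1 (WT replicate 1) to 6 (WT replicate 3) from the shortest. Of the segments 72.2% were called in either direction, 9 shorter and 4 longer. With clonotypes of 1 UMI included the difference was −1.67 bases and its adjusted p 0.0729, and in spleen alone it was −1.36 bases with an adjusted p of 0.0586. Within libraries with few and with many unusual J ends the difference was −1.79 and −1.11 bases, lower in all of 2 and 4 mice.

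The most frequent in-frame TRBV15 length was 39 bases, 13 residues, at 36.7 ± 5.35% of clonotypes, and 42 bases followed at 24.95 ± 3.26%. Among other V segments 42 bases led at 31.9 ± 0.727%, and 39 bases made up 22.5 ± 1.15%. The lengths of 36 bases made up 18.3 ± 7.51% for TRBV15 and 10.7 ± 0.464% for others. Of the 8 leaders 7 thus had the most frequent length of their segment.

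**Figure D4:**
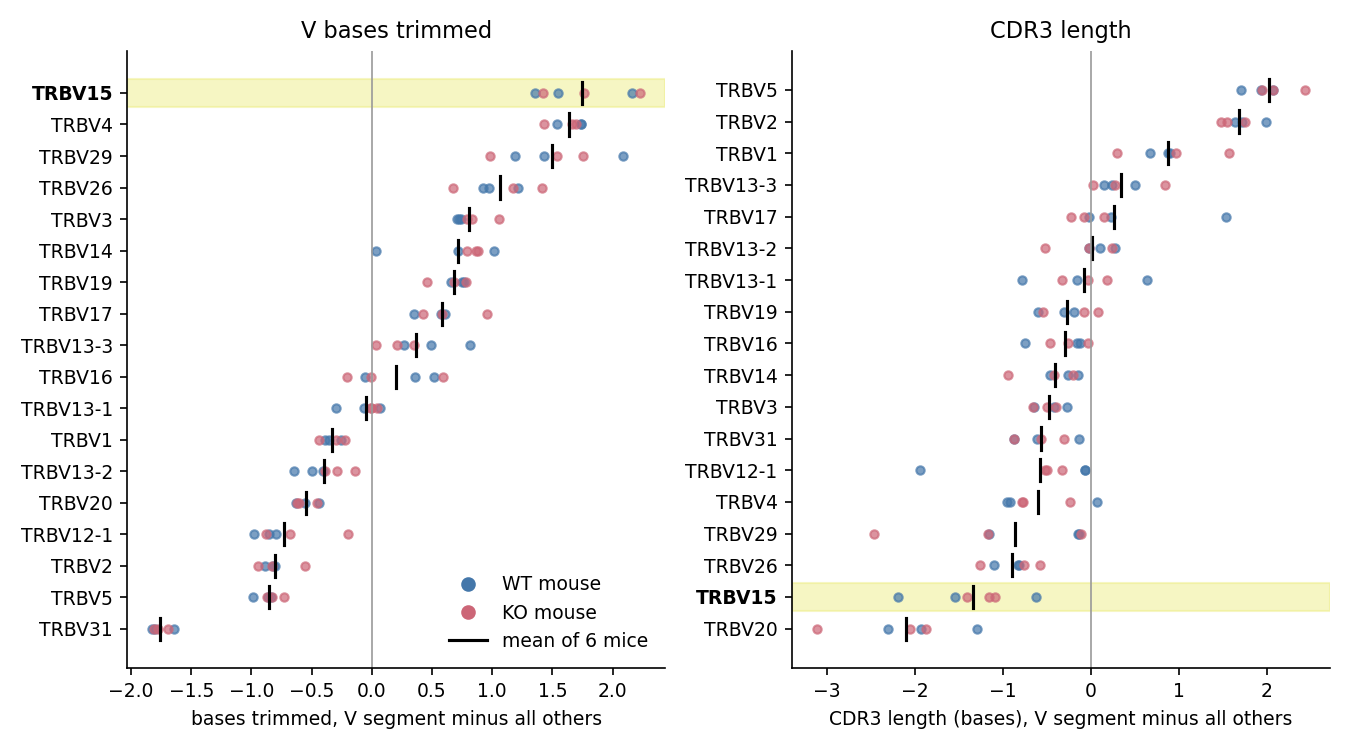
Difference between each of 18 V segments and all other V segments within mice, in bases trimmed from the V end (left x axis) and in in-frame CDR3 length in bases (right x axis). Points are mice (WT blue, KO red), bars the mean of 6. TRBV15 lies at the top for trimming (1.75) and just above TRBV20 at the bottom for length (−1.33), with all 6 mice on the same side of 0.

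The stretch between V and J did not differ detectably. It averaged 8.96 ± 0.557 bases for TRBV15 and 8.99 ± 0.0755 for others, longer in 3 of 6 mice (p = 0.875 by the exact sign-flip test, adjusted 0.875). No segment passed for this measure (0% called by the sign-flip test, 7 at an unadjusted p under 0.05, and 5 by limma).

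Non-productive rearrangements were more frequent among TRBV15 clonotypes in every mouse, without passing the adjusted test. They made up 22.6 ± 5.68% of TRBV15 clonotypes and 15.7 ± 2.79% of others (SD, n = 6 mice). In WT replicates 1, 3 and 4 the TRBV15 values were 20.6%, 18.1% and 18.4%, and in KO replicates 1, 2 and 3 they were 19.6%, 32.2% and 26.9%. The excess was 6.91 ± 4.07 points, with 6 of 6 mice higher (p = 0.0313 by the exact sign-flip test, adjusted 0.0563). For TRBV15 this is the same unadjusted p as for trimming, V bases and CDR3 length, the smallest that 6 mice allow. The adjusted values differ only by how many of the 18 segments reached it, 10 here against 16, 14 and 13. Passing in those measures is thus not stronger evidence for TRBV15 itself. None of the 18 segments passed (0% called, 10 at an unadjusted p under 0.05), whereas limma on the same differences called 11, TRBV15 among them with an adjusted p of 0.00378. Most were out of frame, 16.7% to 32.2% of TRBV15 clonotypes per mouse, and stop codons in frame made up at most 1.79%. Within libraries with few and with many unusual J ends the excess was 7.35 and 6.76 points.

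By UMIs, WT replicate 4 stood apart. Non-productive clonotypes held 26.6% of its TRBV15 UMIs in mLN and 21.7% in spleen, against 1.38% to 11.9% in the 10 libraries of the other mice and 3.12% to 6.29% among other V segments of the 12 libraries. Its largest out-of-frame TRBV15 clonotype, joined to TRBJ1-2 with a CDR3 of 41 bases, is printed here because it was the next largest TRBV15 clonotype of that spleen after the leader.
WT replicate 4, out of frame: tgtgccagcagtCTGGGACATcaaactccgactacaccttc
It held 2280 UMIs (0.522%) in spleen and 393 (0.395%) in mLN, whereas the in-frame mLN leader held 0.337% of spleen UMIs. The largest non-productive TRBV15 clonotype of each other mouse held at most 0.223% of a library.

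TRBV15 was compared with other V segments in its joining to the 12 J segments that made up at least 1% of clonotypes. The most frequent was TRBJ2-7, at 21.7% of TRBV15 and 17.7% of other clonotypes. TRBJ2 segments together made up 66.9 ± 4.05% for TRBV15 and 65.5 ± 1.20% for others, higher in 3 of 6 mice (p = 0.469 by the exact sign-flip test, adjusted 0.6). No segment passed for the TRBJ2 share (0% called by the sign-flip test, 3 at an unadjusted p under 0.05, and 3 by limma).

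Of single J segments, TRBJ2-5 lay on 1 side in all mice, as 1 of 12 for TRBV15 against 12.5% of 216 V and J pairs, so its count is near the background. It was joined to 8.82%, 8.81% and 12.7% of TRBV15 clonotypes in WT replicates 1, 3 and 4 and to 8.93%, 5.93% and 9.62% in KO replicates 1, 2 and 3. The mean of 9.13% was 4.07 ± 2.05 points below that of the other V segments, 13.2% (6 of 6 mice lower, p = 0.0313 by the exact sign-flip test, adjusted over 216 pairs 0.25). TRBJ1-1 had the largest positive difference, 5.07 ± 5.88 points, at 15.1% of TRBV15 and 10.1% of other clonotypes (5 of 6 mice higher, p = 0.0938 by the exact sign-flip test, adjusted 0.382). None of the 216 pairs passed after adjustment (27 at an unadjusted p under 0.05).

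**Figure D5:**
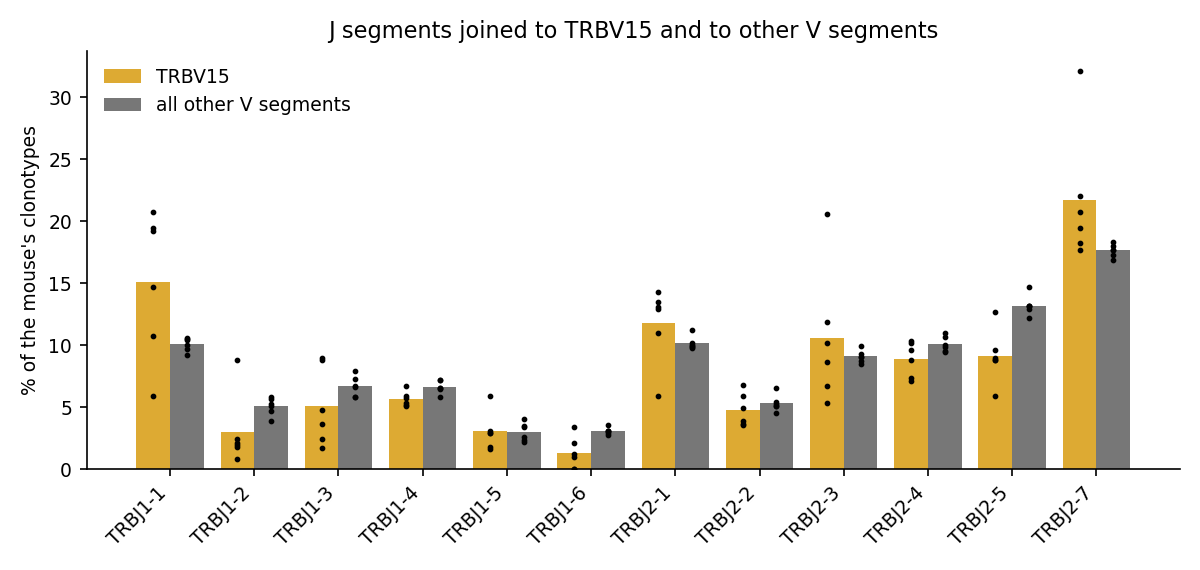
Percent of clonotypes with at least 2 UMIs joined to each J segment (x axis) for TRBV15 and for all other V segments (y axis). Bars are means of 6 mice and points are mice. TRBJ2-5 is lower for TRBV15 in all 6 mice. The TRBV15 points spread more widely than those of the other V segments pooled, but they rest on far fewer clonotypes per mouse, which widens the spread of percentages.

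Few TRBV15 sequences recurred between mice. Among 738 distinct TRBV15 CDR3s with at least 2 UMIs in a mouse, 9 (1.22%) were found in at least 2 mice, the lowest share of the 18 V segments (highest TRBV5, 4.27%). Shares depend on how many clonotypes each mouse gave, and the segments differ in this. No TRBV15 CDR3 was found in 4 or more mice, and 3 were found in 3 mice. At the level of in-frame amino acid sequences, 16 of 558 were found in at least 2 mice and 3 in 3.

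Of the 3 found in 3 mice, 2 were leading clonotypes with few UMIs elsewhere. The KO replicate 1 leader had 10800 UMIs in its own mouse, 39 in KO replicate 2 and 19 in KO replicate 3. The KO replicate 2 spleen leader had 3688 UMIs there and 2 each in KO replicate 3 and WT replicate 4. The remaining sequence, joined to TRBJ1-1, had 2 UMIs in KO replicate 2, 3 in WT replicate 3 and 2 in WT replicate 4, and is the only one of the 3 with like numbers in every mouse.
in KO replicate 2, WT replicate 3 and WT replicate 4: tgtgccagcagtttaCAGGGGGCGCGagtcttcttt
Between 0 and 9 TRBV15 clonotypes per library had a 100 times higher share in a different mouse, and they held at most 0.565% of the library's TRBV15 UMIs. Whether they are shared rearrangements or molecules carried between libraries was not tested.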

How the data were processed

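TCR beta libraries of CD4+ T cells from mLN and spleen of 3 WT and 3 KO recipients were used. By their methods the authors reverse transcribed RNA by 5′ RACE with constant region primers and UMIs, sequenced on a MiSeq, built UMI consensus reads with MIGEC and assembled clonotypes with MiXCR. Versions, V and J reference and genome build were not given in the sources used here. The count the authors deposited for each clonotype was whole throughout and read as UMIs. The deposited clone fraction is this count divided by the library total. The authors' downsampling is not in the deposited tables, and UMI collapsing and merging of similar clonotypes could not be redone.

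Entries with the same first V segment and CDR3 were summed. TRBV15, the measures and the lists were chosen with earlier results of these data known, and trimming of the V end and the split by unusual J ends (10% of clonotypes of 1 UMI) were added after seeing the data. The rule for named items took TRBV15 in each library, the 3 V segments most like it, its neighbours in rank, the largest TRBV15 clonotype of each library, the most widely shared TRBV15 clonotypes and J segments on 1 side in all mice or with the largest or smallest difference. No clonotype reached the 4 mice the rule asked for, so those in 3 mice are described. TRBV4, TRBV5, TRBV17 and TRBV20, set beside TRBV15 in a measure, and the largest non-productive clonotype were named after their values were seen.

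UMIs per V segment in mLN were tested by edgeR 4.0.16 on library totals, with DESeq2 1.42.0 as an alternative, leaving out segments that had 10 UMIs in fewer than 3 libraries. Genotypes were otherwise compared by exact permutation tests and V segments within mice by exact sign-flip tests, with limma 3.58.1 as an alternative. Trimming, V bases and the V to J gap were taken from the reference points in the deposited tables. Python 3.11.15 and R 4.3.3 were used. The edgeR and sign-flip tests were checked on simulated data with large changes only. These checks do not show that a change as small as that of TRBV15 in mLN could be detected. Library totals of 2488 to 493287 UMIs allow shares from 0.121% and 0.000608%, respectively, to be seen (3 counts). Nothing in the labels says whether mice shared a donor or cage, so p-values measure the spread between these mice. Alternatives were other minimum UMIs, weights, scalings, organs, in-frame clonotypes, a block by replicate number and each mouse left out in turn.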

Additional observations from a re-analysis of the deposited data

Results flagged for a closer look

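In 3 of 19 sets of 6 mice, each holding the within-mouse differences between TRBV15 and all other V segments for a measure or J segment, 1 mouse lay far from the other 5 by Dixon's criterion, which chance meets in about 1 of 20 sets. TRBJ1-2 was joined to TRBV15 more often than to other segments in WT replicate 1, by 4.91 percentage points, whereas the other mice lay between −4.21 and −2.74. TRBJ2-1 was lower for TRBV15 in WT replicate 1, by −5.33 points, against 1.22 to 4.29 in the others. TRBJ2-7 was higher for TRBV15 in KO replicate 1, by 15.3 points, against −0.0894 to 4.36 in the others. WT replicate 1 and KO replicate 1 had the fewest TRBV15 clonotypes with at least 2 UMIs, 34 and 56, and both had few unusual J ends. The part of these in the differences was not tested.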

How the results depend on the processing

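Of 174 recomputed values, 125 kept direction and side of the threshold, or, for the untested spleen difference and counts, stayed near the value reported. For many of these the side was fixed beforehand. The mLN permutation tests can give no p below 0.1, and sign-flip tests with a mouse left out none below 0.0625. Where such a result had not passed, only its direction could change, so the count is not a measure of robustness. Without the settings that left out a mouse, 59 of 78 values were kept. The mLN log2 fold change reversed to −0.0361 without the largest clonotypes, and leaving out each mouse gave 0.23 to 0.92. The spleen difference of 5.89 points moved to 0.9996 without the largest clonotypes and 0.581 with distinct CDR3s, and spanned 0.865 to 9.13 over mice left out. Nothing in the labels says whether WT and KO mice with the same number belong together. Deviations of V segment shares from the group means correlated at −0.0296 to 0.316 between same-numbered libraries of an organ. These values do not decide it, and both organs of WT replicate 1 and KO replicate 1 had few unusual J ends. With the replicate block over replicates 1 and 3 the spleen difference was 8.20 points and the mLN log2 fold change 0.10 (adjusted p = 0.953 by edgeR). This fit called 2 of 21 V segments in mLN, TRBV15 not among them. The other mLN measures of TRBV15 were recomputed with the block as differences only, without a test. A permutation test that ignored the pairing of TRBV15 and other segments within mice kept −1.33 bases for CDR3 length below the threshold. It also brought the non-productive excess of 6.91 points past the threshold, but it treats paired values as independent. On the within-mouse differences, limma brought this excess past the threshold too.

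In mLN the clonotype share reversed to 0.276 points with clonotypes of 1 UMI, spanned −0.285 to 0.252 over mice left out, and CDR3 length −0.0393 to 1.23 bases. The TRBJ2 excess reversed to −5.50 points with clonotypes of 1 UMI, −0.303 from 5 UMIs and −9.22 weighted by UMIs. CDR3 length missed the threshold with clonotypes of 1 UMI (−1.67 bases), from 5 UMIs (−1.40), in spleen alone (−1.36) and weighted (−1.96), and V bases (−1.33) and trimming (2.11) missed it weighted by UMIs. With 5 mice no sign-flip test can pass, the smallest p being 0.0625. Values then spanned −1.48 to −1.16 bases for length, −0.91 to −0.74 for V bases, 1.65 to 1.82 for trimming and −0.197 to 0.108 for the V to J gap. J segments on 1 side numbered 3 with clonotypes of 1 UMI, 0 from 5 UMIs, 3 in frame and 1 to 4 over mice left out. The mLN alone gave no values within mice, as KO replicate 3 had 5 TRBV15 clonotypes there. Depth limits this library most.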

Other observations

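In the 7 libraries with many unusual J ends, which come from 4 mice, the J segment with most TRBV15 UMIs made up 21.6% to 57.2% of the TRBV15 clonotypes of 1 UMI, which are left out of the CDR3 comparisons. The same J segments made up 8.56% to 17.8% of the 1-UMI clonotypes of other V segments. The J segment was chosen by TRBV15 UMIs, so an excess for TRBV15 is favoured. Scored at its own leading J segment in the same way, each of 18 V segments was higher than the rest in 7 of 7 libraries, and the mean excess of TRBV15, 27.8 percentage points, ranked 2, after TRBV17 (32.3). In KO replicate 2 mLN, TRBJ1-1 held 75.6% of TRBV15 UMIs and made up 57.2% of the 304 TRBV15 clonotypes of 1 UMI, but 20.5% of those with at least 2 UMIs. The source of the 1-UMI clonotypes was not tested.

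The same in-frame amino acid sequence arose from several TRBV15 nucleotide sequences in 3.85%, 3.29% and 1.01% of cases in WT replicates 1, 3 and 4, and in none of 45, 80 and 76 sequences in KO replicates 1, 2 and 3. Among other V segments these shares were 0.122% to 1.34% per mouse. The WT values rest on 1, 5 and 2 sequences.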
